A study of Mus musculus with 2 samples.

Results

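The region examined is the stretch of mouse chromosome 17 that holds the major histocompatibility complex. Its members are the measurement probes of the arrays that start between positions 31000000 and 37000000 of that chromosome, without those named for olfactory receptors (Olfr), cytochrome P450 (Cyp) or ribosomal protein (Rps, Rpl) genes. The rule uses position and name and no measured value. The rule kept 230 of 42404 measurement probes, or 230 of the 253 in the interval, and left out 19 Olfr, 2 Cyp and 2 Rps probes. The members carry 180 names and run from 31037738 to 36056416 in the files' own coordinates, for which no source used here names a build. Probes were 45 to 60 bases long with a longest gap of 178 kb between neighbours, and each was spotted once on an array. All 20 probes of the arrays whose names begin with H2- fell inside the region, in 16 genes, and 179 members lay from the first to the last of them. Classical class I genes such as H2-K1 and H2-D1 were not analysed here.

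The major histocompatibility complex encodes the proteins that show peptides to T cells. Class I and class II molecules bind peptides, the class III stretch between them carries complement, cytokine and many unrelated genes, and class Ib genes of the Q, T and M families lie toward the telomere. Inbred mouse strains carry fixed combinations of its alleles, called H2 haplotypes. C57BL/6 carries haplotype b and FVB/NJ haplotype q, and the number of Q and T genes is known to differ between haplotypes. In C57BL/6 the gene H2-Ea, the alpha chain of the class II molecule I-E, makes no protein.

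Array comparative genomic hybridisation was used, in which 2 DNA samples in different dyes bind the same spots. The series asks about offspring of sires that carry a single intact allele of Dnmt3L, which helps DNA methyltransferases to act in germ cells. On the adult array, tail DNA of adult female C57BL/6 Dnmt3L+/+ mice with a Dnmt3L+/- sire (Cy3) was set against tail DNA of Dnmt3L+/+ females from a C57BL/6 colony unrelated to them (Cy5). On the embryo array, DNA of whole female Dnmt3L+/+ embryos at E10.5 with a Dnmt3L+/- sire (Cy5) was set against embryos of a control cross (Cy3). The title of the embryo array names an F1 of FVB/NJ and C57BL/6, its description names C57BL/6, and neither assigns strains to the channels. A difference of H2 haplotype between channels is therefore possible from the labels on the embryo array only, and its strains are not settled. All 4 DNA samples share the Dnmt3L+/+ genotype, and no source used here says whether animals were pooled. Each stage had 1 array, 2 in all, so a single-array ratio has no replicate check and gets no test.

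Every value below is log2 of the offspring signal over the control signal, with the median of the array at 0. A probe is called past the fold at 0.5 log2 from the median, which is 1.41-fold. The spread among probes spotted 3 times elsewhere on the arrays was 0.19 (adult) and 0.065 (embryo) as a median SD over 308 such probes. The scanner software's own error of a ratio had a median over the members of 0.255 and 0.235 log2. Well above background in both channels were 227 of 230 members in adult DNA and 229 on the embryo array. The shares of all probes were close to this, at 97% and 99.8%. The arrays go against their labels in 1 respect, since X-linked probes had a median of −0.86 on each array although both channels are labelled female. The region is autosomal, and values centred on autosomal probes gave the same counts of members past the fold.

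Of the 180 names, 89 are current symbols in the RefSeq gene table (GRCm38.p6), 29 are a single older name or accession of a current gene, and 59 are unmatched, of which 22 are only positions. Gene names are given as on the array, with the current name in brackets. The sequences below are 250 bases before the gene start from the RefSeq promoter table (GRCm38.p6), for 2 genes with high embryo ratios and 2 H2 genes. They are examples and do not stand for the region. Gtf2h4 and Nrm are among the genes with the highest embryo ratios, and H2-Eb1 and H2-M1 are the H2 genes with 3 probes each. CG dinucleotides, the sites of DNA methylation in mammals, are in capitals. The coordinates with each sequence are GRCm38.p6 positions, and whether a probe overlaps them is unknown because the build of the array positions is unstated.
Gtf2h4: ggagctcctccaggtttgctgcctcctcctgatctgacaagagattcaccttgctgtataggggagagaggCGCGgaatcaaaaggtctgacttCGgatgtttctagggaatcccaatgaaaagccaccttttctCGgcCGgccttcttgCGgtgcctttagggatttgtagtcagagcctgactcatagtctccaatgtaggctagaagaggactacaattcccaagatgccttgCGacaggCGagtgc
Nrm: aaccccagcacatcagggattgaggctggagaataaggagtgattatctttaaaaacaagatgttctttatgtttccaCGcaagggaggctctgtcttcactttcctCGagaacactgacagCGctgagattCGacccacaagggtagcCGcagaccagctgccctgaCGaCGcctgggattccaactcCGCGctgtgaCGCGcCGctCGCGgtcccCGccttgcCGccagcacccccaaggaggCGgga
H2-Eb1: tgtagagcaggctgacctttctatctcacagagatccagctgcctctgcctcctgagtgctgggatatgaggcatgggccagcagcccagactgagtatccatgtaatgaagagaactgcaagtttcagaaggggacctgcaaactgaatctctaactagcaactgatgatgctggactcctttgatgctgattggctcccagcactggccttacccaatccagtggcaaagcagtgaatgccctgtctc
H2-M1: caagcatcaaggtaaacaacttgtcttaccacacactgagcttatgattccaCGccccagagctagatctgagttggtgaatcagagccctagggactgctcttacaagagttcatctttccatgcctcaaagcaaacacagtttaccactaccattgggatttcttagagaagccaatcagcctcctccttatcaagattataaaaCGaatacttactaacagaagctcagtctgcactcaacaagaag

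The Gtf2h4 stretch is chr17:35673744-35673993 on the minus strand and holds 8 CG dinucleotides. That of Nrm, chr17:35861068-35861317 on the plus strand, holds 17. The H2-Eb1 stretch, chr17:34305617-34305866 on the plus strand, holds 0, and the H2-M1 stretch, chr17:36672198-36672447 on the minus strand, holds 2. The median over all 32841 promoters of the table was 6, and 92.1% held at least 1. CCAAT, read on both strands, occurred 2 times in each of the Gtf2h4, H2-Eb1 and H2-M1 stretches and 0 times in that of Nrm, and 33.9% of all promoters held it. GGGCGG, also on both strands, occurred in none of the 4, against 32.7% of all promoters. The stretch of Ier3, not shown, held 8 CG dinucleotides and 1 GGGCGG. The embryo ratio of Ier3 was above that of Nrm, at 1.08 against 1.04.

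The 20 H2-named probes sat near the centre of both arrays. In adult DNA their median was −0.08 (SD over probes 0.24), and in embryo DNA it was 0.00 (SD 0.19). The other 210 members had medians of 0.04 (SD 0.35) and 0.06 (SD 0.40). The H2 median was thus lower than theirs by 0.12 and 0.06 log2, a difference that was not tested. By probe length, the adult H2 medians were 0.07 (60 bases, 11 probes), −0.14 (50 to 59 bases, 5) and −0.24 (under 50 bases, 4). Those of all members were 0.05, 0.03 and −0.07 in that order. The embryo H2 medians were 0.02, 0.17 and −0.10. The part of probe length in the H2 difference was not tested. On the embryo array 0 of 20 H2-named probes passed the fold in either direction, beside 4.4% of all probes higher and 8.54% lower (5.57% of autosomal probes). On the adult array 1 of 20 was higher, beside 3.59% of all probes, and 0 were lower, beside 8.36% (5.52% of autosomal probes). Thus no ratio of this size marked the 20 H2-named probes on the embryo array, the 1 whose labels name both strains. With normexp background correction and an offset of 50, in place of the deposited processed signals, 3 of the 20 were higher there, beside 6.95% of all probes, with H2-T10 at 0.70. That correction also turned the sign of 4 of the 16 H2 genes in adult DNA and of 6 on the embryo array. The H2-named probes cover the Q genes with 1 probe and the T genes with 2. Unmatched probes among the H2 genes are not in the set, such as ENSMUST00000081397 (0.80 on the embryo array) and LOC386456 (0.09). A difference in Q or T genes without a probe would not be seen here. From these labels, channels of equal haplotype and channels whose different alleles bind the probes equally cannot be told apart.

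**Figure D1:**
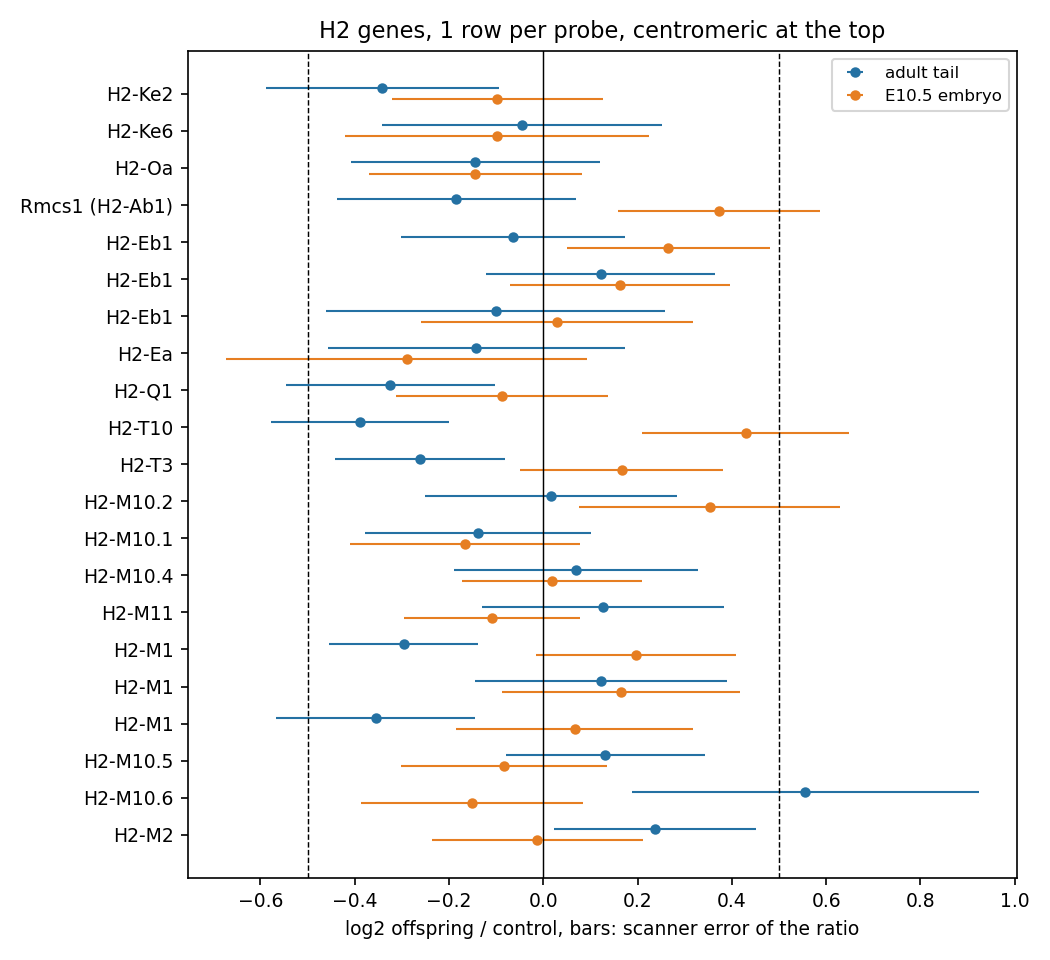
Log2 ratio of offspring over control (x axis) for each H2-named probe and for Rmcs1 (H2-Ab1), 1 row per probe in order along the chromosome, with the adult array in blue and the embryo array in orange. Bars are the scanner software's error of that ratio and dashed lines mark 0.5 log2. A single point, H2-M10.6 on the adult array at 0.56, lies past a dashed line.

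Of the antigen genes, those of class II come first along the chromosome. These encode the chains that present peptides from outside the cell, and 6 probes cover 4 of them. Rmcs1, an older name of H2-Ab1 (the beta chain of the molecule I-A), measured −0.18 in adult DNA and 0.37 on the embryo array. The 3 probes of H2-Eb1, the beta chain of I-E, measured −0.06, 0.12 and −0.10 on the adult array. In embryo DNA they measured 0.26, 0.16 and 0.03. The SD of the 3 H2-Eb1 probes was 0.12 on each array, so that the gene median of 0.16 on the embryo array was close to the spread between its own probes. H2-Ea, its partner, measured −0.14 and −0.29. Its signals on the embryo array were 384 for offspring and 468 for control. H2-Oa, a chain of the molecule that tunes peptide loading in B cells, measured −0.14 on both arrays. None of the 6 probes passed the fold on either array.

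Class Ib genes lie toward the telomere and encode relatives of the class I molecules, many of them with limited variation and special roles. H2-Q1, the single Q gene among the members, measured −0.32 in adult DNA and −0.09 on the embryo array. Of the T genes, H2-T10 measured −0.39 and 0.43 and H2-T3, the thymus leukaemia antigen, −0.26 and 0.17. Both T genes were thus below the centre in adult DNA and above it on the embryo array. The embryo value of H2-T10 was the highest of any H2-named probe, from signals of 5386 for offspring and 3979 for control, with a scanner error of 0.22. It did not pass the fold.

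The M genes, 8 of them with 10 probes, had medians of 0.10 on the adult array (SD 0.26) and 0.00 on the embryo array (SD 0.17). The M10 genes are expressed in neurons of the vomeronasal organ. H2-M10.6 measured 0.56 in adult DNA and −0.15 on the embryo array. Its adult signals were 622 for offspring and 417 for control, with a scanner error of 0.37. The other M10 genes measured 0.02 (H2-M10.2), −0.14 (H2-M10.1), 0.07 (H2-M10.4) and 0.13 (H2-M10.5) on the adult array. The same genes measured 0.35, −0.17, 0.02 and −0.08 in embryo DNA, in that order. H2-M10.6 therefore stood apart from its nearest relatives on 1 array only, by a probe in the lowest 25% of signals. H2-M1, another gene of the vomeronasal group, measured −0.30, 0.12 and −0.36 over its 3 probes in adult DNA and 0.20, 0.17 and 0.07 on the embryo array. The adult probes differed among themselves (SD 0.26) by more than the embryo probes (SD 0.07). H2-M11 measured 0.13 and −0.11, and H2-M2, the most telomeric, 0.24 and −0.01.

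A pair of genes carries the H2 name without encoding an antigen. H2-Ke2 (Pfdn6), a subunit of the chaperone prefoldin, measured −0.34 in adult DNA and −0.10 on the embryo array. With normexp background correction H2-Ke2 turned to 0.04 and 0.09. H2-Ke6, a hydroxysteroid dehydrogenase, measured −0.05 and −0.10. These values lie within the range of the antigen genes on both arrays.

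Over the whole region, the embryo array was the one with more probes past the fold toward offspring. There, 21 of 230 members (9.13%) were at least 0.5 higher, beside 4.4% of all probes, and 11 (4.78%) were lower, beside 8.54%. The background for lower probes includes the X chromosome, and among autosomal probes 4.53% were higher and 5.57% lower. The probes of chromosome 17 outside the region had 5.77% higher and 5.36% lower. On the adult array 11 members (4.78%) were higher, beside 3.59% of all probes, and 13 (5.65%) lower, beside 8.36%. The autosomal shares there were 3.69% and 5.52%. The medians over all members were 0.03 in adult DNA and 0.04 on the embryo array. With normexp background correction the split on the embryo array was 42 higher and 6 lower, beside 6.95% and 4.62% of all probes. On the adult array it was 0 higher and 1 lower, beside 0.0118% and 1.27%.

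**Figure D2:**
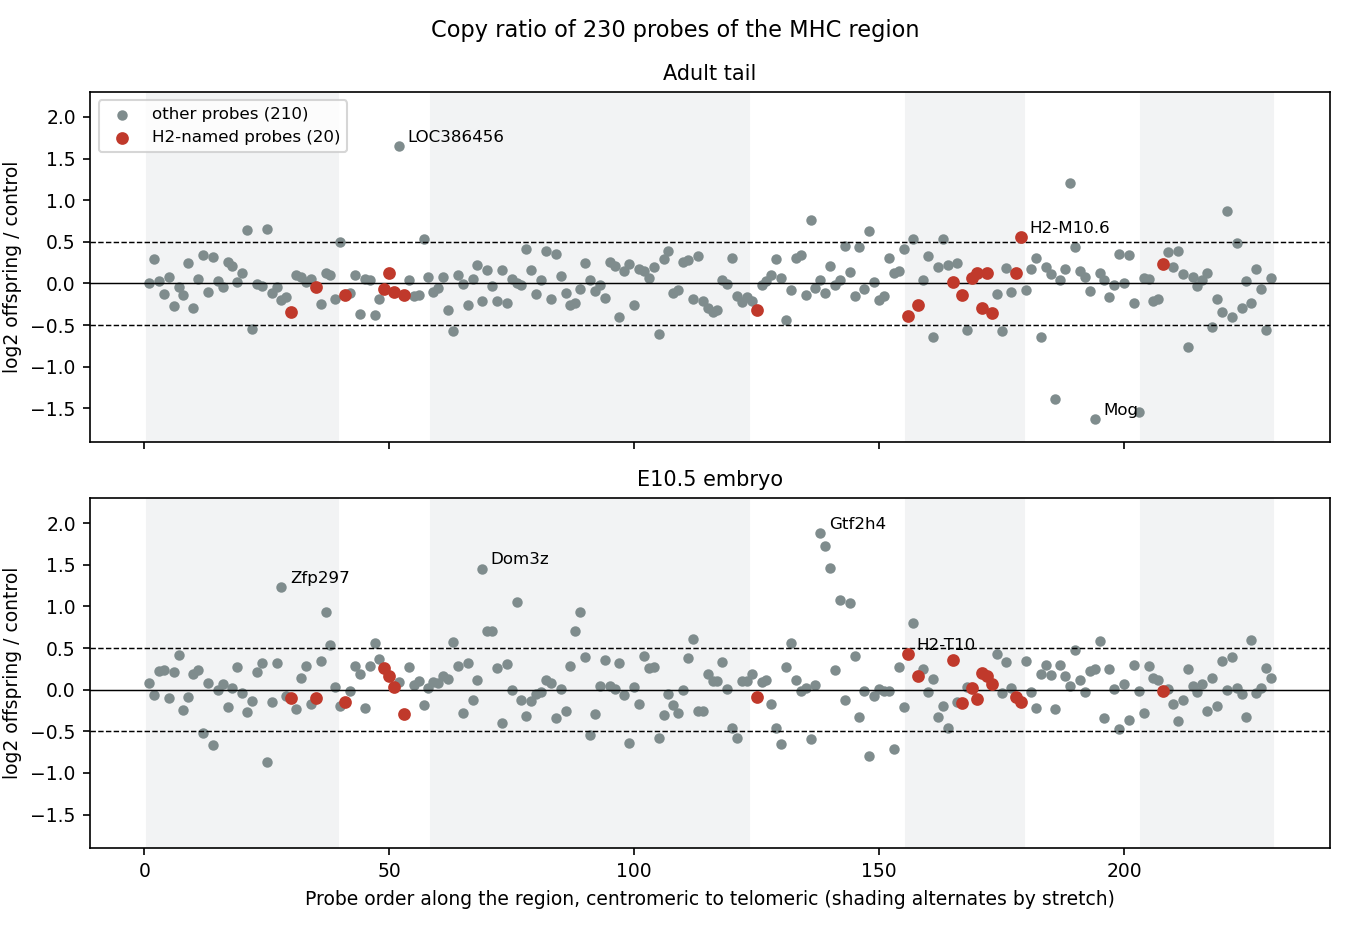
Log2 ratio of offspring over control (y axis) for the 230 member probes in order along the region, with the adult array above and the embryo array below, H2-named probes in red and dashed lines at 0.5 log2. On the embryo array the high points are other genes, with Gtf2h4 at 1.88 and 1.72, and the 20 red points stay between −0.29 and 0.43.

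**Figure D3:**
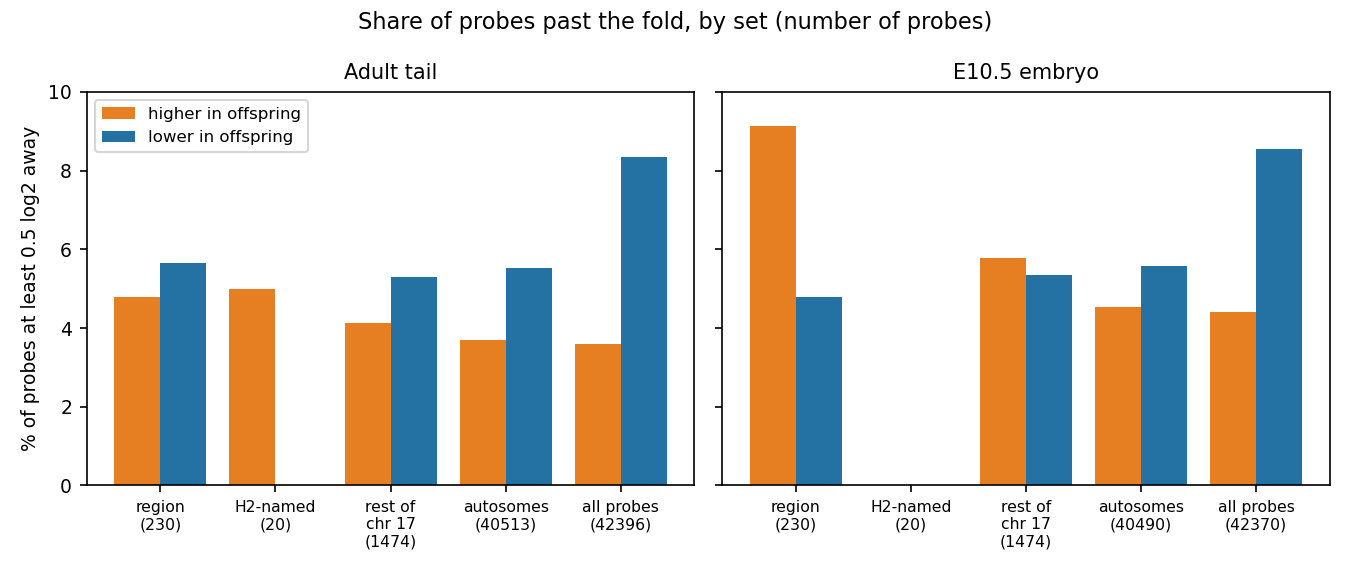
Percent of probes at least 0.5 log2 higher (orange) or lower (blue) in offspring, for the region, the H2-named probes, the rest of chromosome 17, all autosomes and all probes, with the number of probes under each set. The region's bar for higher probes on the embryo array reaches 9.13% and the H2-named probes have no bar there.

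The highest embryo ratios were in the telomeric framework, conserved genes that lie among and beyond the class Ib clusters. There, 6 of 27 listed probes were past the fold toward offspring, beside 4.4% of all and 4.53% of autosomal probes. The list, which holds Gtf2h4 and Ddr1, was chosen with earlier results of these data known. Its share is therefore a description and not a test against the array. Lower was 1 probe, of Prr3 at −0.71, beside 8.54% of all and 5.57% of autosomal probes. Gtf2h4 encodes a subunit of the transcription and repair factor TFIIH. Its 2 probes measured 1.88 and 1.72 on the embryo array (SD 0.11) and 0.04 and −0.12 on the adult array. These probes overlap, from 33384046 to 33384119, so they read nearly the same DNA, are not independent and make up 2 of those 6. Their embryo signals were 766 and 1113 for offspring against 207 and 336 for control. With normexp background correction their median was 0.73. Ddr1, a collagen receptor kinase next to it, measured 1.46 at 1 probe and 0.23 at another about 9.11 kb across the gene, so the gene's median was 0.85 with an SD of 0.87. Ier3, an early-response gene, measured 1.08 from 1 probe. Nrm, which encodes the nuclear membrane protein nurim, measured 1.04 from 1 probe. In adult DNA Ddr1 measured 0.21 and −0.02, Ier3 0.04 and Nrm 0.14, all inside the fold. Flot1, between Ier3 and Nrm, measured −0.12 on the embryo array, and the 2 Dhx16 probes that follow Nrm measured 0.41 and −0.33. From Gtf2h4 to Ier3 all 5 probes were above 0, and from Flot1 on the probes lay on both sides of it. Gabbr1, a GABA receptor subunit gene beyond the M genes, measured 0.59 and is the last of the 6.

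Runs of neighbouring probes were examined because a change of copy number would cover several. Of 221 windows of 10 consecutive members in embryo DNA, 4 had medians 0.5 or more above the centre, the highest at 0.72 from Vars2l to Dhx16. Over the autosomes, the region included, 0.0918% of 40319 windows passed in either direction, and 0.00992% were at or above that highest value. The region's own windows are counted in these shares, so they are not an independent comparison. When the overlapping Gtf2h4 probes were counted once, an alternative added after seeing the data, 0 windows passed. With 20 probes a window, 0 passed as well. With 5 probes a window, 8 passed, and the highest, from Vars2l to Ddr1 had a median of 1.46. Of 40414 autosomal windows of that length, those of the region included, 0.49% passed in either direction and 0.00742% were at or above 1.46. The highest autosomal median was that same 1.46, so this last share holds the region's own windows and compares the region with itself. With the overlapping probes counted once, 6 of these shorter windows passed. The members' windows ran from −0.21 to 0.22 in adult DNA and 0 passed, beside 0.0521% of 40342 autosomal windows.

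In the class III stretch, 8 of 65 probes (12.3%) were past the fold toward offspring on the embryo array, beside 4.4% of all and 4.53% of autosomal probes. Lower were 4, beside 8.54% of all probes, a share that includes X, and 5.57% of autosomal probes. In adult DNA 0 were higher and 2 lower, beside 3.59% and 8.36% of all probes and 3.69% and 5.52% of autosomal probes. Dom3z (Dxo), an RNA decapping and decay enzyme, measured 1.45 on the embryo array and −0.21 on the adult array. Zbtb12, a zinc finger gene, measured 1.06 and 0.00. Skiv2l, the helicase that feeds the RNA exosome, measured 0.71 and −0.03. D17H6S56E-3 (Vwa7) measured 0.93 and −0.07. Agpat1, an enzyme of phosphatidic acid synthesis, measured 0.57 on the embryo array and −0.57 on the adult array. Bat2 (Prrc2a) measured 0.61 and 0.38 over its 2 probes on the embryo array and −0.19 and 0.28 on the adult array. Vars2, a name that also was an older name of Vars, measured 0.70 and 0.29 on the embryo array. Lower on the embryo array were Ly6g6e at −0.64, Ly6g5b at −0.58, Nfkbil1 at −0.58 and Msh5, a meiotic mismatch repair gene whose name also was an older name of Hspa1l, at −0.54. The other probes of Ly6g6e, of which there are 3 in all, reached 0.03.

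Complement and cytokine genes lie within and beside class III. Of the complement list of 7 genes, C2 alone was named among the members (the name was also an older name of Cfb), and its 2 probes measured −0.23 and 0.06 in adult DNA and 0.31 and 0.00 on the embryo array. Tnf, the cytokine, measured 0.05 and 0.33, and Lta, its neighbour lymphotoxin alpha, 0.00 and 0.01. Lst1, a leukocyte gene, measured −0.32 and 0.11. The 3 probes of Aif1, a marker of macrophages and microglia, measured −0.21, −0.30 and −0.34 on the adult array. In embryo DNA they measured −0.26, 0.19 and 0.11. Of the 6 probes of the cytokine list and the 2 of C2, 0 passed the fold on either array, beside the shares of all probes given above, and nothing is read from so few probes.

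The inducible heat shock genes Hspa1a and Hspa1b are near-identical copies, so their probes may bind each other's DNA. Hspa1a measured 0.36 in adult DNA and −0.35 on the embryo array. Hspa1b measured 0.39 and −0.19 over 2 probes in adult DNA and 0.12 and 0.08 on the embryo array. Hspa1l, the testis form, measured 0.09 and 0.01.

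Genes that supply peptides lie among the class II genes. Tap1 and Tap2 form the transporter that carries peptides into the endoplasmic reticulum, and Psmb8 and Psmb9 are immunoproteasome subunits. Tap1 measured −0.36 in adult DNA and 0.19 on the embryo array. The 2 probes of Tap2 measured 0.04 and −0.38 in adult DNA and 0.28 and 0.56 on the embryo array, and the last of these was the single one of 5 peptide supply probes past the fold. Psmb9 measured 0.11 and 0.29, and Psmb8 measured 0.05 and −0.22.

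On the centromeric side, 2 of 10 listed framework probes were past the fold toward offspring on the embryo array, beside 4.4% of all probes, and 0 on the adult array, beside 3.59%. With 10 probes these counts are small, and this list too was chosen with earlier results of these data known. Rxrb, a retinoid X receptor, measured 0.94 on the embryo array and 0.12 on the adult array. Col11a2, a cartilage collagen, measured 0.54 at 1 probe and 0.04 at the other on the embryo array. Zfp297 (Zbtb22), a zinc finger gene of the same stretch, measured 1.23 on the embryo array and −0.20 on the adult array, from embryo signals of 19739 and 8349. Ndufa7, a subunit of respiratory complex I, was the lowest member on the embryo array at −0.87, and its other probe measured 0.32. Daxx, a histone chaperone, measured 0.33 and Slc39a7, a zinc transporter, 0.34 on the embryo array.

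The most extreme adult ratios came from single probes with low signals. LOC386456 measured 1.65 on the adult array, from signals of 198 for offspring and 62.0 for control, and 0.09 on the embryo array. 1700022C21Rik (Znrd1as) measured 1.21 and 0.04. Mog, which encodes a myelin protein, measured −1.63 at 1 probe and −0.09 at the other in adult DNA. In embryo DNA these probes measured 0.25 and 0.22. TC1541468 measured −1.54 and −0.02. A probe of Trim31, a ubiquitin ligase gene, was not well above background for offspring on the adult array. After centring, the control signal there measured 2.62-fold the offspring signal, with a scanner error of 0.90 log2. The other Trim31 probe measured 0.12. Of the 11 higher and 13 lower members on the adult array, 6 and 9 lay in the lowest 25% of signals of the array, against 24 of the 206 members inside the fold. Over the whole adult array 64.0% of the probes past the fold lay in that class. On the embryo array 6 of 21 higher and 4 of 11 lower members did, against 39 of 198 inside the fold. Over the whole embryo array 40.8% of the probes past the fold lay in that class. The part of low signal in these ratios was not tested.

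Of the 21 members past the fold toward offspring on the embryo array, the median signal stood at percentile 76.9 of the offspring channel and percentile 34.1 of the control channel. In the adult channels the same 21 probes stood at 72.1 and 58.4, again as medians. The first Gtf2h4 probe was at percentile 34.8 of the offspring channel and 1.46 of the control channel on the embryo array, and at 49.0 and 47.3 on the adult array. For Dom3z the embryo percentiles were 73.0 and 15.6 and the adult ones 80.5 and 85.5. In these examples the control channel of the embryo array was the one that stood low beside the other 3 channels. These probes were chosen by their embryo ratio, so the gap on that array is a description.

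**Figure D4:**
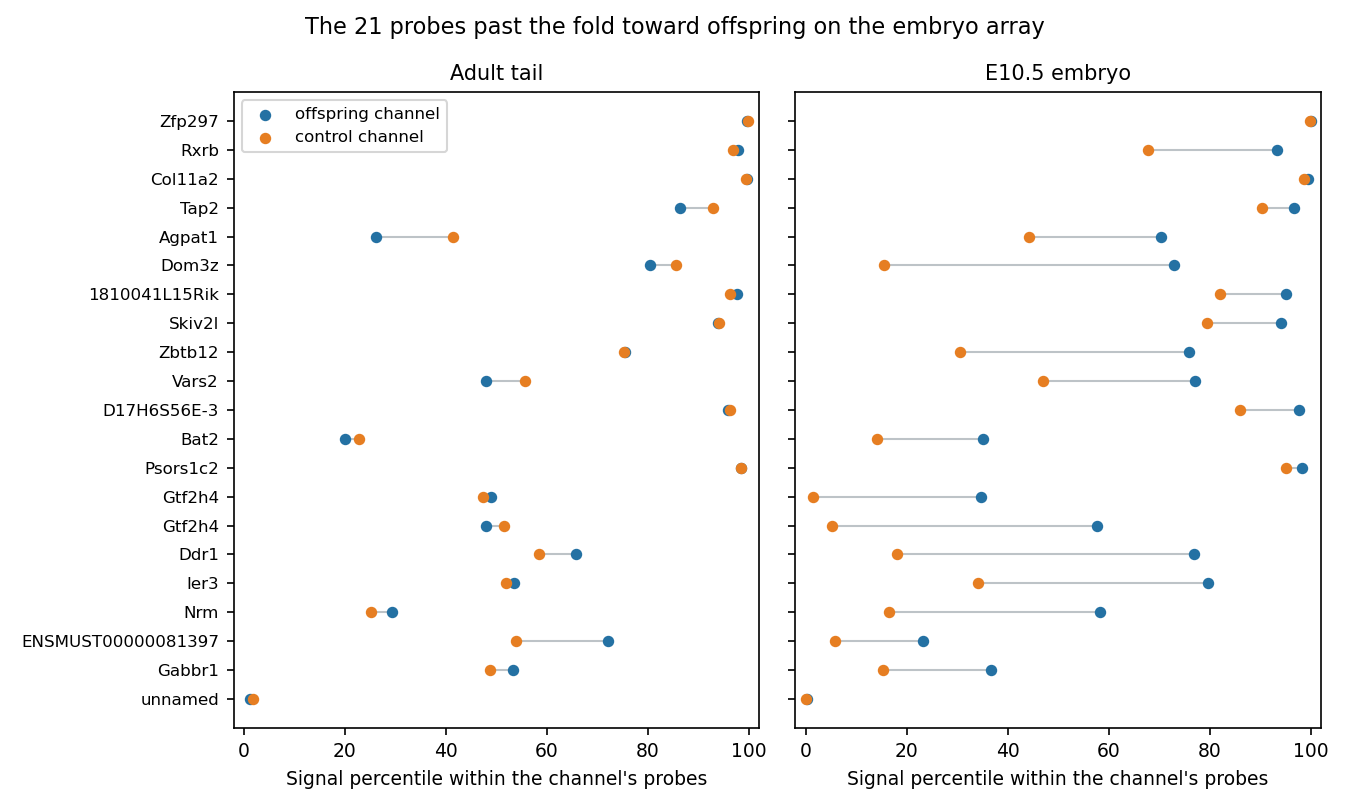
Signal percentile within each channel (x axis) of the 21 probes past the fold toward offspring on the embryo array, in order along the region, with offspring in blue and control in orange, the adult array on the left and the embryo array on the right. Control points stand far to the left of offspring points on the embryo array for Gtf2h4, Dom3z and Ddr1, and the points of these genes lie close together on the adult array, where the gap is wider for ENSMUST00000081397 (72.1 and 53.9) and Agpat1 (26.2 and 41.4).

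Probe length moved with the embryo ratios. Among autosomal probes of the embryo array 3.51% of those of 60 bases were past the fold toward offspring, 6.98% of those of 50 to 59 bases and 15.7% of those under 50 bases. Among members the shares were 7.97% of 138, 9.23% of 65 and 14.8% of 27 probes in that order. The members of 60 bases thus had a larger share than autosomal probes of the same length, and the shortest members had a share near the autosomal one. On the adult array, where offspring were in Cy3 and not Cy5, the autosomal shares ran the other way, at 4.29%, 1.5% and 0.977%. The adult autosomal shares past the fold toward control, in Cy5 there, were 5.24%, 6.06% and 9.54%. Shorter autosomal probes were thus more often past the fold toward Cy5 on both arrays. The part of probe length in the region's count was not tested.

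Member genes with a promoter sequence were also set out by their CG count. Of 95 matched genes, 0 of 34 with a count of at most 7.5, 8 of 39 with more and at most 18, and 2 of 22 above 18 had a median past the fold toward offspring on the embryo array. The limits split all autosomal genes into classes of similar size, whose shares were 2.81%, 4.37% and 4.31%. The 13 matched H2 genes had a median of 2 CG dinucleotides. Of these, 11 fell in the lowest class and 2, H2-Ke2 and H2-Ke6, in the next. Across the 95 member genes the correlation of CG count and embryo ratio was r = −0.0047. Genes are not independent replicates, and this is a description.

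The arrays were set side by side probe by probe. Over the 230 members the adult and embryo ratios had a Pearson correlation of −0.20 and a Spearman correlation of −0.34, and 88 members (38.3%) had the same sign. The points share the probe sequence, and offspring were in opposite dyes on the arrays. Autosomal probes as a whole had a Pearson correlation of −0.25 and the same sign in 39.0%. The region is therefore close to the rest of the autosomes in this respect. The H2-named probes had a Pearson correlation of −0.22, and 10 of 20 (50%) had the same sign. They are too few for a comparison.

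A single member was past the fold toward offspring on both arrays, beside 0.0897% of all probes, and a single one was lower on both, beside 2.83%, a share that includes X. Among autosomal probes 0.0939% were higher and 0.195% lower on both. The first is ENSMUST00000081397, a transcript with no matched name that lies near H2-T10, at 0.53 in adult DNA and 0.80 on the embryo array. Its signals were 1476 and 1004 in adult DNA and 612 and 349 on the embryo array. The other is Ly6g5b, a gene of the Ly6 family in class III, at −0.60 and −0.58, with signals of 164 and 245 in adult DNA and 428 and 639 on the embryo array. Past the fold in opposite directions were 4 members (1.74%), beside 1.12% of all probes. Ndufa7 measured 0.66 in adult DNA and −0.87 on the embryo array. Vars2l (Vars2) measured 0.76 and −0.60, and 2310061I04Rik 0.63 and −0.79. Agpat1 alone of the 4 was lower on the adult array. No H2-named probe is among these 6. With normexp background correction ENSMUST00000081397 measured −0.02 on the embryo array and Ly6g5b 0.11 on the adult array, so neither kept its direction on both.

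**Figure D5:**
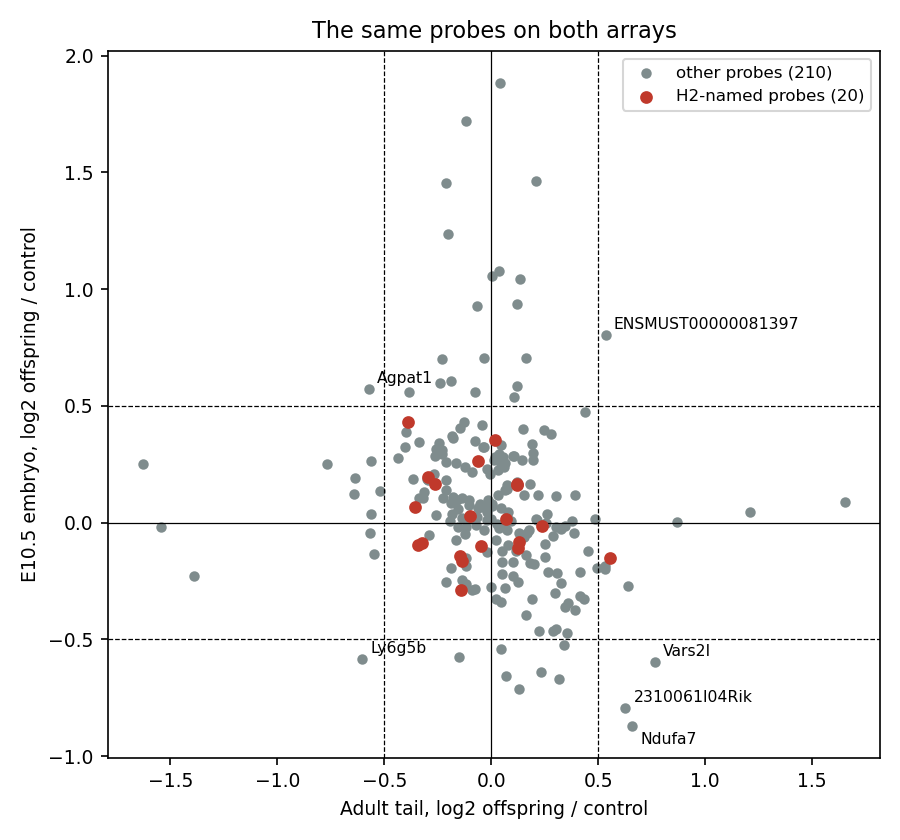
Log2 ratio on the adult array (x axis) against that on the embryo array (y axis) for the 230 members, H2-named probes in red, dashed lines at 0.5 log2 and names at the 6 probes past the fold on both arrays. The points with the highest embryo ratios lie near 0 on the adult array, and the red points stay inside the central square but for H2-M10.6.

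When both arrays were fitted together as 2 measures of offspring over control with limma, 0 of 230 members passed an adjusted p of 0.05, and 0% of all 42362 probes did. The smallest adjusted p among members was 0.454, at ENSMUST00000081397 (mean 0.67, SE 0.20). At an unadjusted p under 0.05 there were 6 members (2.61%), 4 higher and 2 lower, beside 4.53% of all probes, a share that also includes X. Among autosomal probes 1.35% passed, 0.615% higher and 0.734% lower. The 6 are LOC386456, Ly6g5b, a Gtf2h4 probe, a Ddr1 probe, ENSMUST00000081397 and the dim Trim31 probe. None of the 20 H2-named probes was among them, and their smallest adjusted p was 1. This fit treats the stages as replicates, which they are not by label. It also called none of the 1199 probes, X probes included, that were lower past the fold on both arrays. The absence of calls among members and H2-named probes therefore does not show that their ratios are unchanged. Its p-values rest on a variance that the fit shares over all probes, as well as on the spread of a probe between these 2 arrays. Ly6g5b, at −0.60 and −0.58, thus had an SE of 0.19.

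The first and last members had ratios inside the fold. The first member, 6030422M01Rik, measured 0.00 in adult DNA and 0.08 on the embryo array. The last member, TC1538683, measured 0.07 and 0.14, and the nearest probe beyond the limit, of Crisp1, −0.06 and 0.04. Of 43 member genes with 2 or 3 probes, the median SD between probes of a gene was 0.26 in adult DNA and 0.20 on the embryo array. The probes of 1 gene took both signs in 33 of these genes in adult DNA and in 19 on the embryo array.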

How the data were processed

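Genomic DNA was hybridised to 2 two-channel Agilent arrays, and the groups and dyes came from the labels. The deposited files hold spot intensity values from Agilent Feature Extraction 9.1.1.1, per the file headers (9.1 per the submitters' processing notes): processed signals with background subtracted and dyes scaled. The deposited log10 ratio is Cy5 over Cy3 of these signals. The series matrix, also log10 and deposited, differed from it by at most 0.0005, with medians of −0.0032 and 0. That matrix is thus uncentred, in the direction Cy5 over Cy3, and 0 of its per-sample columns were left unused. The ratio error column, an estimate of the scanner software per the file headers, was converted to log2. Control spots (1030 of 44050) and spots with an outlier mark (8 adult, 34 embryo) were left out. Log2 ratios of offspring over control were centred on the array median, with no loess. The number of arrays limits the precision.

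The members and gene lists were chosen with earlier results of these data known. Genes were named by a rule: all H2 genes, up to 4 of each role list by largest ratio, up to 5 higher and 5 lower per array with at least 2 probes, up to 5 single probes agreeing in sign, and Gtf2h4 and Ddr1. Other probes named were chosen after their values were seen. Both arrays were fitted with limma 3.58.1 (R 4.3.3) over all probes with Benjamini-Hochberg adjustment, after a test on simulated data. Alternatives changed the background correction, centring, filters, fold and window length. Python 3.11.15 with pandas 2.3.3 and numpy 2.4.6 was used for the rest. Some items are not reported here.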

Additional observations from a re-analysis of the deposited data

Results flagged for a closer look

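Members past 0.5 log2 in opposite directions on the 2 arrays were marked, because every array of one stage moved one way and that of the other stage the opposite way. With 1 array per stage the difference was not tested. The embryo value minus the adult value was −1.53 for Ndufa7, 1.14 for Agpat1, −1.36 for Vars2l and −1.42 for 2310061I04Rik. Each comes from a single probe. The other probes of Ndufa7 and Vars2l measured 0.32 and 0.06 on the embryo array.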

How the results depend on the processing

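No paired analysis was possible because each stage has a single array. Of 214 recomputed values of the main results, 191 stayed within 1.5 times a reported count or within the SD of repeated spots of a reported median. Several of the alternatives behind this count could hardly move a member. Each member was spotted once, 0 were saturated, and the deposited ratio and the series matrix hold nearly the same values. With normexp background correction, the adult members past the fold went from 11 to 0 higher and from 13 to 1 lower, and the adult H2-named probes from 1 to 0 higher. With the same correction the embryo members went from 21 to 42 higher and from 11 to 6 lower, the embryo H2-named probes from 0 to 3 higher, their median from 0.00 to 0.10, and the embryo windows from 4 to 11. Loess gave an embryo H2 median of −0.07. At a fold of 0.3 log2 there were 34 higher and 26 lower adult members (12.5% and 15.9% of all probes), 4 lower adult H2-named probes, 43 higher and 25 lower embryo members (12% and 17.1% of all probes) and 2 higher embryo H2-named probes. At 0.85 log2 these were 3 and 3 adult members (0.734% and 3.5% of all probes), 0 higher adult H2-named probes, and 10 and 1 embryo members (1.65% and 2.73% of all probes). These shares of all probes include X. Embryo windows numbered 8 with 5 probes, 0 with 20 probes, 0 with overlapping probes counted once and 6 with both 5 probes and that count, the last 2 chosen after seeing the data. Of probes or genes past the fold, the sign turned under normexp for Ly6g5b (adult, 0.11), Mog (adult gene median, 0.05) and ENSMUST00000081397 (embryo, −0.02). Of 57 named genes, 15 adult and 11 embryo values changed sign with it, among them H2-Ke2 (adult, −0.34 to 0.04) and Rxrb (adult, 0.12 to −0.20). The adult gene median of Trim31 became 0.12 without its dim probe. The cause was not tested for the others. limma called 0 members in all 5 fits, while normexp called 39 probes over the array. Of these fits, 1 took both arrays as Cy5 over Cy3, which compares the dyes and not offspring with control. That limma fit had 16 members at an unadjusted p under 0.05, against 6 in the main fit. Single arrays and 1 probe for most genes limit what can be told.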
